A study of Mus musculus with 6 samples.

Results

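The genes described here are the translation initiation factors of mouse plasmacytoid dendritic cells, taken by name: every gene whose symbol begins with Eif, without the Eif2ak kinases, the Eif4ebp binding proteins and pseudogene names, and with a mean of at least 10 normalized counts over the libraries. Of the 52550 genes in the files, 63 had such a symbol, 7 of them kinases or binding proteins and 7 pseudogenes. A further 2 lay under the mean of 10: Eif4e1b was at 0 in every library, and Eif2c5 had 9.09 normalized counts in 1 library and 0 in the others. The remaining 47 genes all entered the test, which covered 15265 genes, and the lowest of them by mean were Eif5a2, Eif3j2 and Eif4e3. The cells came from the spleen of C57BL/6 mice and were cultured for 12 hours with R837 (imiquimod, an agonist of Toll-like receptor 7), either alone or together with taurine, a sulfur-containing amino acid derivative. Each group had 3 libraries of messenger RNA. All 6 carried R837, so the comparison measures taurine on top of R837 and holds no unstimulated cells. The labels used here give neither doses nor the age of the mice.

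Translation initiation brings the small ribosomal subunit, the initiator tRNA and an mRNA together at a start codon. The eIF2 complex carries the initiator tRNA and is recharged by its exchange factor eIF2B, eIF3 forms a large platform on the small subunit, the eIF4 proteins bind the cap and unwind the leader, and eIF5B joins the large subunit. In plasmacytoid dendritic cells, which secrete large amounts of type I interferon after Toll-like receptor stimulation, this machinery sets how much protein is made from the induced mRNAs. RNA levels do not report the phosphorylation and binding events by which much of this control is known to act.

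The 6 libraries held between 33585080 and 38392654 reads on genes. All 13 plasmacytoid dendritic cell markers were measured, with summed levels of 391097 to 427637 normalized counts with R837 and 411395 to 424216 with taurine. The sums overlapped, but 2 of the 13 were called higher and 4 lower: Bst2 had means of 39427 and 51217, Cox6a2 of 1105 and 1613, Tcf4, a regulator of these cells, of 16402 and 11453, Runx2 of 14375 and 9466, Klk1 of 4180 and 3281, and Pacsin1 of 4234 and 3252. Markers of several other cells had lower sums with taurine, without overlap. They ran from 1180 to 1294 with R837 and from 894 to 1178 with taurine for 5 T cell genes, most of it Cd4, with Cd3d and Cd3g at 0. For 5 conventional dendritic cell genes they were 5414 to 5768 and 5050 to 5148. Clec9a was called lower (means 2555 and 1864), while Zbtb46 (2814 and 3052) and Clec10a (43.3 and 51.5) had higher means with taurine, uncalled. For 5 monocyte and macrophage genes the sums were 3921 to 4256 and 3290 to 3787, with none called. Adgre1 had means of 1938 and 1422, while Csf1r (931 and 1001) and C1qa (101 and 113) went the other way. B cell sums overlapped (1454 to 2513 and 1647 to 2400), as did those of natural killer cell genes (43.7 to 67.9 and 29.7 to 43.8, with Gzma at 0). Of 3 endothelial genes, Kdr, Cdh5 and Pecam1, the summed level was 100147 to 119271 with R837 and 83011 to 89060 with taurine, and 2 of the 3 were lower by test, while the stromal genes Col1a1 and Col3a1 were at 0. Summed erythroid markers ran from 80.2 to 126 with R837 and from 162 to 239 with taurine (Hba-a1 called higher), and summed neutrophil markers from 797 to 1244 and from 1265 to 1448 (Ngp called higher). The neutrophil gene Camp went the other way, from a mean of 71.4 to 48.8, without a call. The part of these genes in the results below was not tested. In bulk RNA a smaller number of cells of a type and less RNA per cell cannot be told apart.

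The 47 factors together took 0.841%, 0.869% and 0.853% of the normalized counts in the R837 libraries and 0.803%, 0.809% and 0.793% in the taurine libraries. The shares of the groups did not overlap, and those of the eIF4 genes did not either: their sum was 131076, 137399 and 131048 normalized counts with R837 and 120761, 121289 and 116026 with taurine. Such sums weigh abundant genes most. Means with R837 and with taurine were 44978 and 38016 for Eif4g2 (not called) and 18043 and 14015 for Eif4g1, both eIF4 genes. For the eIF3 gene Eif3a they were 19746 and 14820. By gene, 27 of the 47 log2 changes were positive and 20 negative, with a median of 0.05. The eIF3 sums overlapped between the groups, at 85915 to 90524 and 88058 to 91531. Sums of the subunit joining and eIF5A genes did not overlap, but were higher with taurine. They were 23493, 22861 and 23717 with R837 and 24791, 28886 and 27161 with taurine. Per kilobase of exon, the level of the factors spanned more than the changes with taurine. By this measure Eif5a was the highest, with a mean of 6694 normalized counts per kb with R837 and 7847 with taurine. Eif4a1 (5398 and 5568) and Eif1 (5001 and 5206) followed. The lowest were Eif2b3 (66.9 and 58.4) and Eif5a2 (27.2 and 26.5). Within a complex these per-kb levels were unequal: eIF3 subunits ran from Eif3h (4513 per kb with R837) to Eif3j2 (187), and the eIF2B subunits from Eif2b5 (686) to Eif2b3 (66.9). They depend on the length used, here the union of annotated exons. For Eif2b3 that union is 6520 bases, while its transcript with the longest coding sequence holds only 1506 stretches of 50 bases. The low place of Eif2b3, also among the eIF2B subunits, therefore depends on this length. So does the order of Eif5a and Eif4a1, with unions of 2377 and 4334 bases. Their transcripts with the longest coding sequence hold 1388 and 1725 stretches of 50 bases.

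**Figure D1:**
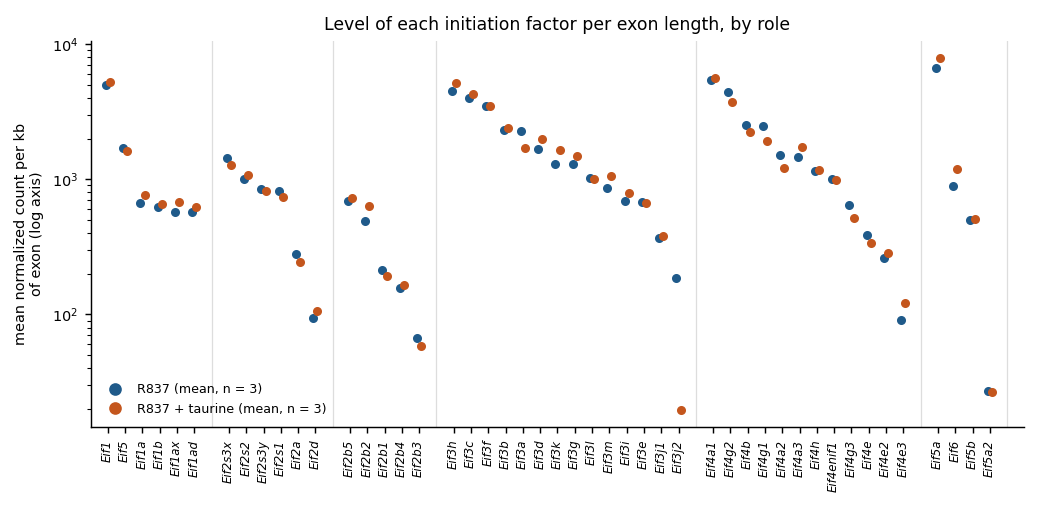
Mean normalized count per kb of exon (log axis) of each of the 47 initiation factors with R837 (blue, n = 3) and R837 with taurine (orange, n = 3), grouped by role in the order start codon selection, initiator tRNA carriers, eIF2B, eIF3, eIF4, and subunit joining with eIF5A. Eif5a has the highest level and Eif5a2 the lowest over both groups, and in taurine alone Eif3j2 lies lowest at a mean of 19.8.

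Between the groups 4 of the 47 factors were called, a share near that over all genes. The mRNAs of the scaffold subunit Eif3a and of the cap-complex scaffolds Eif4g1 and Eif4g3 fell, by between 0.31 and 0.41 on the log2 scale, and that of Eif6, which keeps the large ribosomal subunit apart from the small one, rose by 0.41. The test was limma on log2(normalized count + 1), and a gene was called at a Benjamini-Hochberg adjusted p under 0.05 over all tested genes. Among all 15265 genes, 6.41% were called, 3.75% higher and 2.66% lower with taurine, beside 8.51% of the factors. Limma without an abundance trend called 0 factors. The fits without R837 replicate 1, R837 replicate 2 or taurine replicate 3 called 0 as well. Without taurine replicate 1 only Eif3j2 was called, and without taurine replicate 2 only Eif4g1. Of the fits leaving out a library, only that without R837 replicate 3 kept all 4 calls. An unadjusted p under 0.05 was found for 17 factors, and for 3622 of the 15265 genes. The log2 change was positive for 27 factors and negative for 20 (7419 and 7846 of all genes), with a median of 0.05 beside -0.01 over all genes, and it was under 0.25 in size for 34 of the 47. The 3 taurine libraries were all above the 3 R837 libraries for 11 factors and all below for 7, where 14.6% of all genes were non-overlapping and higher and 15.0% non-overlapping and lower.

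**Figure D2:**
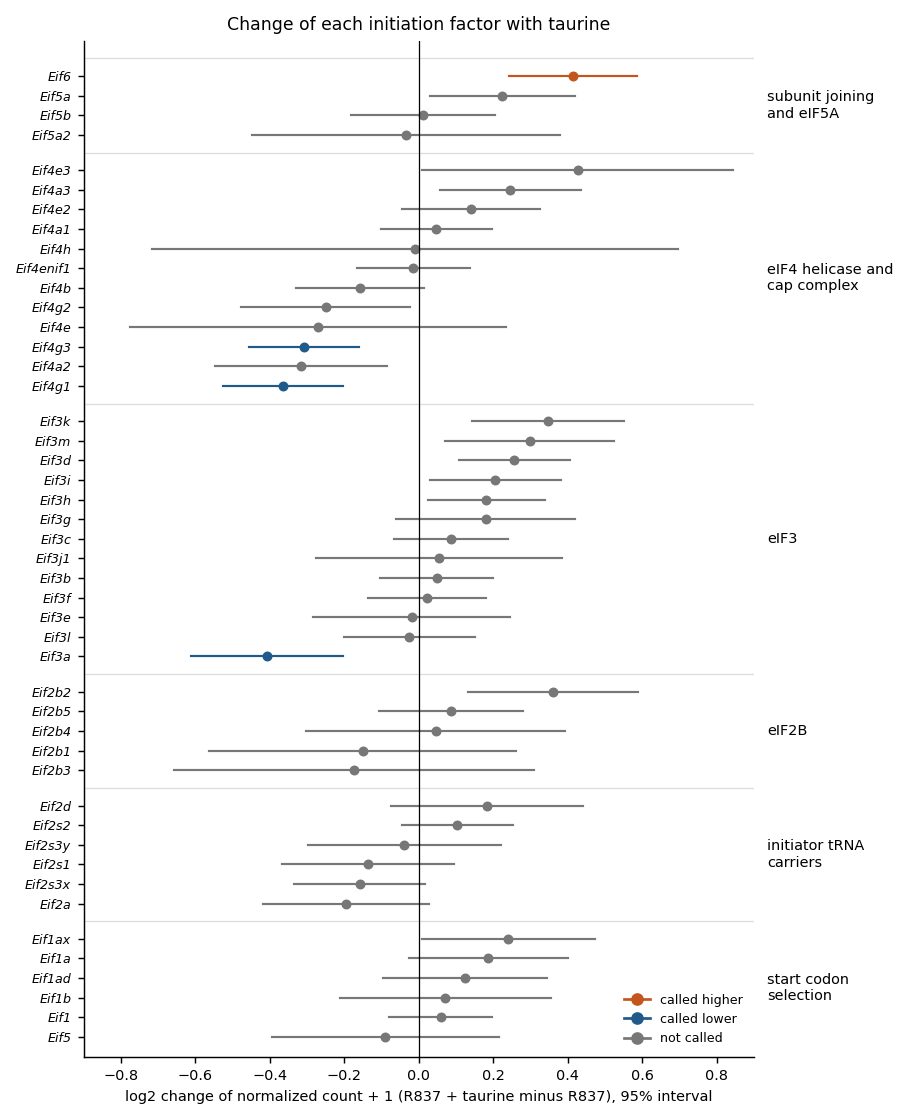
Log2 change of each factor with taurine (R837 with taurine minus R837, 3 libraries each) with its 95% interval, by role. Eif6 is called higher, Eif3a, Eif4g1 and Eif4g3 are called lower, and Eif3j2 at -6.16 lies outside the axis and is not drawn.

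None of the 6 carriers of the initiator tRNA was called, at 0 higher and 0 lower, and none had an unadjusted p under 0.05. Eif2s1, the alpha subunit of eIF2 whose phosphorylation shuts down initiation under stress, had 4194, 4446 and 3513 normalized counts with R837 and 3879, 3472 and 3658 with taurine. The groups overlapped, with R837 replicate 3 among the taurine values, and the log2 change was -0.14 with a standard error of 0.10 (adjusted p = 0.455, limma). The beta subunit Eif2s2 went from a mean of 6797 to 7301 (log2 change 0.10), with all 3 taurine libraries above the R837 libraries but an adjusted p of 0.380. Its reads are uncertain in part, since 27.8% of its 50-base stretches also occur in Gm9892. Eif2a, an alternative carrier of the initiator tRNA, went from 1711 to 1488 (-0.20), again without overlap and with an adjusted p of 0.266. Eif2d, which can deliver tRNA without eIF2, went from 691 to 783 (0.18, adjusted p = 0.374). Exons of Eif2a and Eif2d overlap those of Serp1 and Rassf5. With the reads of these genes added, the changes were -0.11 and 0.06.

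The gamma subunit of eIF2, which holds GTP and the tRNA, has a pair of genes in the mouse, Eif2s3x on chromosome X and Eif2s3y on chromosome Y. Eif2s3x, the carrier with the smallest p, had 5654, 5605 and 5028 normalized counts with R837 and 5078, 4747 and 4746 with taurine, and the groups overlapped through R837 replicate 3 (log2 change -0.16, standard error 0.08, adjusted p = 0.251). Eif2s3y had 3084, 3379 and 4047 with R837 and 3720, 3325 and 3144 with taurine (-0.04, adjusted p = 0.880). Their coding sequences match at 1222 of 1416 bases, 86.3%. The first 120 coding bases of both, from GENCODE M21, are shown because reads are told apart by the 19 letters in capitals, where the copies differ.
Eif2s3x: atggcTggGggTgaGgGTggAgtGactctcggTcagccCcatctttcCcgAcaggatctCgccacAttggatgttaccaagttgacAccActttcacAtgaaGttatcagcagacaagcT
Eif2s3y: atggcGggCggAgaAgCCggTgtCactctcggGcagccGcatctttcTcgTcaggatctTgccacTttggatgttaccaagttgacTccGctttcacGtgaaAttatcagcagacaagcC
The Y copy gave 35.3%, 37.6% and 44.6% of the reads of the pair with R837 and 42.3%, 41.2% and 39.8% with taurine. The taurine libraries lay inside the R837 range. The summed pair changed by -0.12 (adjusted p = 0.346). Of the 50-base stretches of Eif2s3x, 36.2% also occur in other genes, chiefly Gm2223, and 0% of those of Eif2s3y. The share of the Y copy is therefore uncertain.

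None of the 5 subunits of eIF2B, which exchanges GDP for GTP on eIF2, was called in either direction, and 1 had an unadjusted p under 0.05. That was the beta subunit Eif2b2, with 954, 905 and 935 normalized counts under R837 and 1113, 1183 and 1295 with taurine. Every taurine library was above every R837 library, and the log2 change of 0.36 (standard error 0.10) had an adjusted p of 0.0694. The catalytic epsilon subunit Eif2b5 had 1695, 1842 and 1803 with R837 and 1811, 1968 and 1895 with taurine. Its groups overlapped and the change was 0.09 (standard error 0.09, adjusted p = 0.585). The others were less abundant: Eif2b1 had means of 549 and 498 (-0.15), Eif2b3 of 436 and 380 (-0.17) and Eif2b4 of 411 and 428 (0.05).

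No factor of start codon selection was called among 6, and 1 had an unadjusted p under 0.05. Eif1, which holds the scanning ribosome open until the start codon is found, had 10692, 10701 and 10081 normalized counts with R837 and 10859, 10802 and 11104 with taurine. The taurine libraries were all higher, by a log2 change of 0.06 with a standard error of 0.06 (adjusted p = 0.611). Of the 50-base stretches of Eif1, 31.6% also occur in other genes, so its reads are uncertain in part. Eif1ax, a form of eIF1A that works with eIF1 in scanning, had 2677, 2979 and 3462 with R837 and 3688, 3444 and 3581 with taurine. One taurine library lay below the highest R837 library, and the change was 0.24 (standard error 0.10, adjusted p = 0.198). Its copy Eif1a moved from a mean of 2803 to 3196 (0.19), and the 2 summed by 0.21 (adjusted p = 0.163). Eif1b, a copy of Eif1, had means of 700 and 735 (0.07). Eif1ad, named for its eIF1A domain, had 1602 and 1747 (0.12). Eif5, which triggers GTP hydrolysis on eIF2 at the start codon, had 11676 and 10978 (-0.09).

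Of the 14 genes of eIF3, the platform that recruits mRNA to the small subunit, Eif3a was called lower and none higher. Over all tested genes these shares were 2.66% and 3.75%. Eif3a, the largest subunit, on which much of the complex is built, lies at chr19:60761116-60790693 on the minus strand (mm10). It had 21002, 21173 and 17064 normalized counts with R837 and 15394, 14843 and 14224 with taurine. R837 replicates 1 and 2 were well above the rest, replicate 3 stood nearer to the taurine libraries, and the groups did not overlap. Means were 19746 ± 2324 and 14820 ± 586 (SD, n = 3), a log2 change of -0.41 with a standard error of 0.09 (limma, adjusted p = 0.0349). The call held without R837 replicate 3 (-0.51, adjusted p = 0.00563), and leaving out any other library gave changes of -0.44 to -0.35 and adjusted p of 0.0771 to 0.134.

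With Eif3a included, 10 of the 14 eIF3 log2 changes were above 0, with a median of 0.07, beside 7419 of the 15265 tested genes. An unadjusted p under 0.05 was found for 7 of the 14, among them the falls of Eif3a and Eif3j2, and for 3622 of the 15265 genes. Of the 14, 5 were higher and 2 lower without overlap, beside 14.6% and 15.0% of all tested genes. Libraries of the following 5, named with their values known, were all higher with taurine, though none passed the adjusted test. Eif3k, a small peripheral subunit, had 3618, 3134 and 3761 with R837 and 4395, 4277 and 4663 with taurine (0.35, standard error 0.09, adjusted p = 0.0567). Eif3d, a subunit that can bind the cap itself, had 8283, 7916 and 8600 with R837 and 9696, 9672 and 10244 with taurine (0.26, standard error 0.07, adjusted p = 0.0542). For Eif3d the gap between the groups exceeded the range within either. Eif3m went from a mean of 2243 to 2751 (0.30, adjusted p = 0.113), Eif3i from 2541 to 2931 (0.21, adjusted p = 0.148) and Eif3h from 7275 to 8258 (0.18, adjusted p = 0.154). Reads of Eif3m, Eif3h and Eif3d are uncertain in part, since 40.0%, 26.2% and 18.4% of their 50-base stretches also occur in other genes. Eif3k and Eif3d were called in limma with array weights, with a mean floor of 100, in DESeq2 and without R837 replicate 3, so their place beside the threshold depends on these choices.

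The remaining eIF3 subunits overlapped between the groups. Eif3g, which acts in scanning, had means of 2570 and 2925 (0.18) and Eif3c, a core subunit that contacts eIF1, 14105 and 14958 (0.09). Eif3b, which scaffolds Eif3g and Eif3i, had 7765 and 8027 (0.05), and Eif3f 9984 and 10136 (0.02). Eif3e had 4597 and 4508 (-0.02) and Eif3l 3748 and 3677 (-0.03). Reads of Eif3e are uncertain in part, since 22.0% of its 50-base stretches also occur in other genes. The 95% intervals of the core subunits Eif3b and Eif3c ran from -0.10 to 0.20 and from -0.07 to 0.24, and that of Eif3a from -0.61 to -0.20.

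Reads of Eif3j1 and Eif3j2, 2 genes of the loosely bound subunit eIF3j, are uncertain, because their coding sequences are identical over all 783 aligned bases and 91.8% of the 50-base stretches in Eif3j2 transcripts also occur in another gene. Eif3j2 had 437, 162 and 735 normalized counts with R837 and 141, 0 and 0 with taurine. The log2 change of -6.16 (standard error 1.69, adjusted p = 0.0660) rests on the zeros and the pseudocount. In limma without taurine replicate 1, which left only zeros in that group, Eif3j2 was called lower (adjusted p = 0.00724). Eif3j1 had 1813, 2090 and 2524 with R837 and 2371, 2423 and 1866 with taurine (0.05, adjusted p = 0.864). The summed pair had 2250, 2252 and 3259 with R837 and 2512, 2423 and 1866 with taurine. The groups of the sum overlapped, and its change was -0.18 (adjusted p = 0.566).

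Of the 12 eIF4 genes, 2 were called lower and none higher, beside 2.66% and 3.75% of all tested genes. Their log2 change was negative for 8, beside 7846 of the 15265 tested genes, and the median was -0.09. Both called genes are scaffolds that bind the cap-binding protein eIF4E, the helicase eIF4A and eIF3 at once. Eif4g1, at chr16:20668313-20692884 on the plus strand, had 18577, 18549 and 17003 normalized counts with R837 and 13415, 15052 and 13578 with taurine. All taurine libraries were lower, with means of 18043 ± 901 and 14015 ± 902 (SD, n = 3). Its log2 change was -0.37 with a standard error of 0.07 (limma, adjusted p = 0.0229). The call held without R837 replicate 3 and without taurine replicate 2, and leaving out another library gave adjusted p of 0.0781 to 0.10 with changes of -0.34 to -0.33.

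Eif4g3, a second scaffold with 62.0% coding identity to Eif4g1, lies at chr4:137993022-138208508 on the plus strand. It had 7303, 7207 and 6895 normalized counts with R837 and 5685, 5899 and 5704 with taurine. Libraries within a group were close, and the groups stood apart, at 7135 ± 213 and 5763 ± 118 (SD, n = 3). The log2 change was -0.31 with a standard error of 0.06 (adjusted p = 0.0298). It was called without R837 replicate 3, and leaving out any other library gave adjusted p of 0.0826 to 0.115.

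The third scaffold, Eif4g2, lacks the eIF4E site and serves cap-independent initiation. Its counts were 43315, 43591 and 48029 with R837 and 42278, 39646 and 32125 with taurine. The groups did not overlap, but the taurine libraries were spread, and the change of -0.25 (standard error 0.10) had an adjusted p of 0.170. Because Eif4g2 gave most reads of the 3 scaffolds, Eif4g1 took 26.8%, 26.7% and 23.6% of their counts with R837 and 21.9%, 24.8% and 26.4% with taurine, ranges that overlapped.

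The cap-binding protein Eif4e, the limiting factor of cap recognition, had 2347, 2238 and 2442 normalized counts with R837 and 2462, 2339 and 1268 with taurine. Taurine replicate 3 alone was low, the other 5 libraries lay together, and the log2 change was -0.27 with a standard error of 0.22 (adjusted p = 0.507). Without that library it was 0.04. Eif4e2, a cap-binding repressor, had means of 1950 and 2148 (0.14, groups not overlapping, adjusted p = 0.340). The low-abundance Eif4e3 had 227 and 306 (0.43, adjusted p = 0.203). Eif4enif1, which carries eIF4E into the nucleus, had 6351 and 6284 (-0.01).

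The helicase paralogs Eif4a1 and Eif4a2 share 78.0% of their coding bases. Eif4a1 had 23368, 24977 and 21840 normalized counts with R837 and 23616, 23932 and 24848 with taurine. Its groups overlapped (0.05, standard error 0.07, adjusted p = 0.717). Eif4a2 had 7247, 8498 and 8355 with R837 and 7200, 6475 and 5708 with taurine. Every taurine library was lower, the nearest by little, and the change was -0.32 (standard error 0.10, adjusted p = 0.0998), so neither was called in limma. DESeq2 called Eif4a2 lower (-0.31, adjusted p = 0.0442). Eif4a1 made up 76.3%, 74.6% and 72.3% of the pair with R837 and 76.6%, 78.7% and 81.3% with taurine, without overlap. The difference in this share was given no test. Reads of Eif4a1 are uncertain in part, since 65.3% of its 50-base stretches occur elsewhere, chiefly in Eif4a-ps4, and with that pseudogene added the change was again 0.05. The same holds for Eif4a2, with 26.2% of its stretches found elsewhere, so the share within the pair is uncertain too.

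Eif4a3, the helicase of the exon junction complex, had means of 3080 and 3650 (0.25, groups not overlapping, adjusted p = 0.115). Of its 50-base stretches 24.4% also occur in other genes. Eif4b, a helicase cofactor, had 11233 and 10048 (-0.16, adjusted p = 0.245). The related cofactor Eif4h had 5114, 9063 and 5038 with R837 and 4519, 5087 and 9934 with taurine. A single library in each group, R837 replicate 2 and taurine replicate 3, was over 1.5 times each of the others, so the change of -0.01 has a standard error of 0.31.

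**Figure D3:**
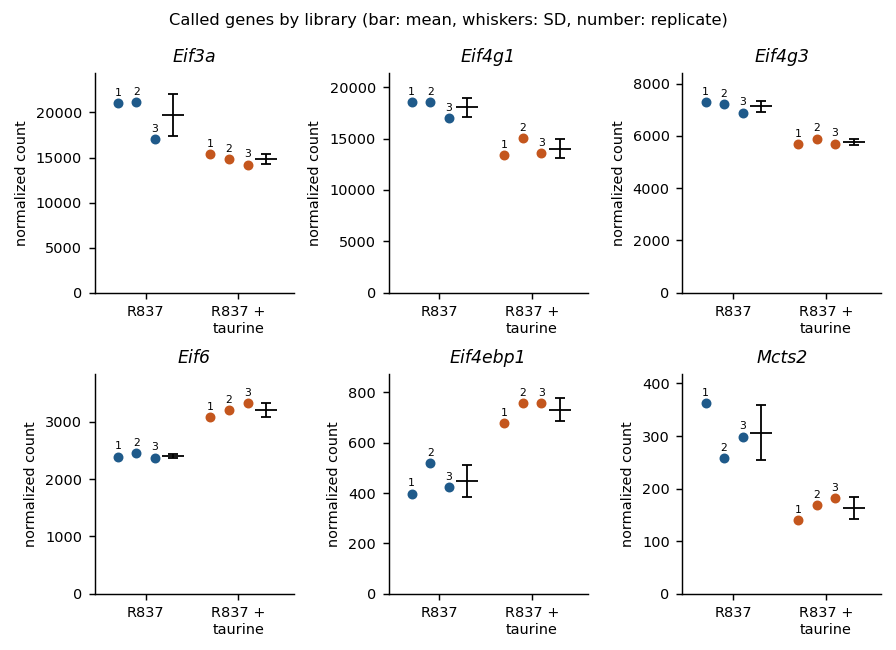
Normalized counts by library of the 4 called initiation factors and of Eif4ebp1 and Mcts2, with the R837 libraries in blue and the taurine libraries in orange, numbered by replicate, and the mean with SD beside them (n = 3). In each panel the groups do not overlap, and R837 replicate 3 lies nearest to the taurine libraries for Eif3a, Eif4g1 and Eif4g3.

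At the last step, subunit joining, Eif6 was called higher, and none of the 4 genes of this role was called lower. Over all tested genes 3.75% were called higher and 2.66% lower. Eif6 binds the large subunit, is needed to make it, and stops it from joining too early. The gene lies at chr2:155819832-155826925 on the minus strand. It had 2390, 2449 and 2372 normalized counts with R837 and 3081, 3206 and 3329 with taurine. The R837 libraries were tightly grouped and every taurine library was above them, at 2403 ± 40.4 and 3205 ± 124 (SD, n = 3). The log2 change was 0.41 with a standard error of 0.08 (adjusted p = 0.0189). The call held without R837 replicate 3, and leaving out any other library gave adjusted p of 0.0524 to 0.0730 with changes of 0.39 to 0.44. Exons of Eif6 overlap those of Gm16098, and with the reads of Gm16098 added the change was 0.42.

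Eif5b, the GTPase that joins the large subunit, had 5002, 5086 and 4629 with R837 and 5140, 5241 and 4482 with taurine. Its groups overlapped fully (0.01, standard error 0.09, adjusted p = 0.956). Of the 50-base stretches of Eif5b, 18.2% also occur in Rev1, and with the reads of Rev1 added the change was -0.06. Eif5a, the hypusine-modified factor that helps elongation and termination, had 15965, 15183 and 16585 with R837 and 16442, 20307 and 19210 with taurine. Taurine replicates 2 and 3 were high and replicate 1 lay inside the R837 range (0.22, standard error 0.09, adjusted p = 0.152). Its copy Eif5a2 had means of 137 and 133 (-0.04).

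The 3 called falls were in genes with long exons in total, and exon length went with the change across the factors. Eif3a has 8731 exon bases, Eif4g1 7301 and Eif4g3 11063, while Eif6 has 2702. Of 17 factors under 3000 bases, 15 had a positive change and the median was 0.18, beside 0.09 for all genes of that length. From 3000 to 6000 bases 8 were positive and 8 negative (median 0.02), and from 6000 bases on 4 were positive and 10 negative (median -0.13, all genes -0.11). Spearman's rho between exon length and log2 change was -0.495 over the 47 factors and -0.192 over the 15238 tested genes with a length. These points share the same 6 libraries. The libraries themselves differed in this way: the deviations of all genes from their means had a rho with exon length of 0.108, 0.147 and 0.0443 in the R837 libraries and -0.10, -0.131 and -0.203 in the taurine libraries.

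When the fitted dependence on length and GC was subtracted per library, rho over the factors was -0.253 and over all genes -0.0427. All 4 calls were kept. The change was -0.26 for Eif3a (adjusted p = 0.0412), -0.37 for Eif4g1 (adjusted p = 0.0165), -0.23 for Eif4g3 (adjusted p = 0.0487) and 0.31 for Eif6 (adjusted p = 0.0421). So the change of Eif4g1 was as large without the trend, and those of Eif3a, Eif4g3 and Eif6 were smaller. Eif3d was then called higher as well (0.27, adjusted p = 0.0433). The median over the factors was 0.02.

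A promoter sequence, 250 bases before to 50 after the RefSeq start (GRCm38.p6), was found for 38 of the 47 factors. The E-box CACGTG, the site read by Myc and related factors, stood in 10 of them (26.3%), beside 11.6% of the 10015 tested genes with a promoter and 7.15% of 32851 promoters. Those 10 were Eif1b, Eif3a, Eif3f, Eif3k, Eif4a1, Eif4e, Eif4g1, Eif4h, Eif5a and Eif5a2, of which Eif3a and Eif4g1 were called lower and none higher. The ETS core CCGGAAG, on either strand, stood in 14 (36.8%) beside 20.1% of tested genes. The cAMP response element TGACGTCA stood in none (3.52% of tested genes), the interferon response pattern of GAAA, any 2 bases and GAAA again in 3 (4.09%) and the amino acid response pattern TGATGNAA in 1 (2.88%). Motifs were searched on both strands, CACGTG and TGACGTCA read the same on each, and a match of letters is not a bound site. Windows of 60 bases on the gene's strand are shown for a factor that was called lower, a near neighbour of the threshold on the higher side and an abundant factor without a call, with the E-box in capitals.
Eif4g1: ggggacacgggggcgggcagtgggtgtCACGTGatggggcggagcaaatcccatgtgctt
Eif3k: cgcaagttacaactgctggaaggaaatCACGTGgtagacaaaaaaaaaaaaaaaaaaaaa
Eif4a1: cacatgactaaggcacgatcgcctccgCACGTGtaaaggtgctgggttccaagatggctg
They lie at chr16:20672646-20672705 (plus strand), chr7:28981900-28981959 (minus strand) and chr11:69672580-69672639 (minus strand). The E-box begins 54, 44 and 189 bases before the RefSeq start, which for Eif4g1 lies inside the gene span given above, downstream of its first annotated base. The 3 windows were picked by the outcome of their genes in the test, so they do not show how the motif relates to the change with taurine.

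Genes that control or accompany initiation were read from lists of 48 symbols, giving 47 tested genes. Among them 1 was called higher and 1 lower (4.26%, beside 6.41% of all tested genes). The median log2 change was -0.03, beside -0.01 over all genes. The called rise was Eif4ebp1, the 4E-BP1 protein that binds eIF4E and keeps eIF4G from it. It had 398, 519 and 425 normalized counts with R837 and 678, 759 and 758 with taurine. All taurine libraries were higher, with a log2 change of 0.72 and a standard error of 0.14 (adjusted p = 0.0219), and the change was 0.73 without the length and GC trend. The call held without R837 replicate 2 and without R837 replicate 3, and otherwise the adjusted p was 0.0547 to 0.0828.

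The called fall was Mcts2, a retrotransposed copy of Mcts1, whose protein works with Denr on ribosome recycling and reinitiation. It had 363, 258 and 299 with R837 and 140, 168 and 182 with taurine. The groups did not overlap (-0.90, standard error 0.19, adjusted p = 0.0306), though reads of a copy are uncertain. The call held without R837 replicate 3, and otherwise the adjusted p was 0.0706 to 0.105.

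Of 9 tested kinase, phosphatase and stress response genes of the eIF2 alpha axis, none was called, with a median of -0.19 and 5 lower without overlap (15.0% of all genes). Eif2ak2, the interferon-induced kinase PKR, had 9403, 10060 and 9812 with R837 and 11598, 10107 and 9503 with taurine. Its groups overlapped (0.09, adjusted p = 0.573). Pabpc1, the poly(A)-binding protein that closes the mRNA loop through eIF4G, had 25451, 25836 and 21898 with R837 and 21270, 20502 and 19778 with taurine. Every taurine library was lower (-0.25, standard error 0.08, adjusted p = 0.0890), and the change was -0.13 without the length and GC trend.

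Elongation genes stood on the positive side in 7 of 8, beside 7419 of the 15265 tested genes, with none called and a median of 0.09. Eef1a1, which brings aminoacyl-tRNA to the ribosome, had 166471, 162453 and 153814 with R837 and 166199, 172908 and 185222 with taurine (0.12, adjusted p = 0.253). Eef2, the translocase, had 67637, 66764 and 65784 with R837 and 65663, 67980 and 70350 with taurine (0.03, adjusted p = 0.797). Both overlapped between the groups. Of the 3 tested termination and recycling genes none was called.

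The spread within groups was small for most factors, with a median coefficient of variation of 5.95%. Among the 39 factors with a mean over 1000 normalized counts, Eif4h and Eif4e had a library more than 1.5 times above or below another of its group. Eif3j1 is shown with Eif3j2 because the 2 share reads. These were chosen with their values known. Eif4h shares none of its 50-base stretches with another gene.

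**Figure D4:**
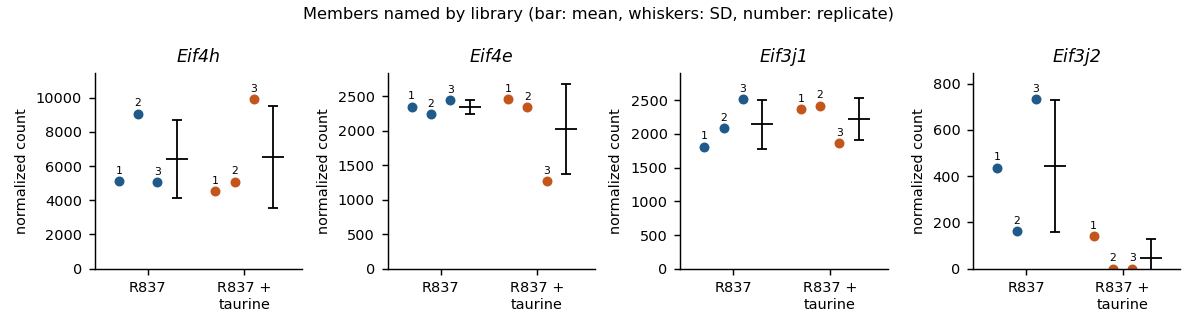
Normalized counts by library of Eif4h, Eif4e, Eif3j1 and Eif3j2, R837 in blue and taurine in orange, numbered by replicate, with the mean and SD beside them (n = 3). Eif4h is high in R837 replicate 2 and taurine replicate 3, Eif4e is low in taurine replicate 3, and Eif3j2 is at 0 in taurine replicates 2 and 3.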

How the data were processed

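Messenger RNA of plasmacytoid dendritic cells was sequenced in 6 libraries, 3 with R837 and 3 with R837 and taurine, grouped by their titles. Whether replicates stand for different mice or cultures is not stated in the labels, and p-values therefore measure the spread between these libraries only. Every pair within a group differed by more than sampling noise.

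The authors deposited 1 signal value per gene, named a normalized count per the file headers. In each library 100% of values were whole multiples of 1 step, within 0.001 of a whole read, so the values are whole reads divided by a size factor (0.942 to 1.06). The submitters' processing notes name HISAT2, StringTie, mm8 and mm10. How reads were counted, and with which strand setting, is not given in the sources used here, so overlapping genes cannot be told apart. Of 52403 identifiers shared with GENCODE M21, 95.2% had the same coordinates, which are given as mm10. For 27 genes a symbol that stood as a date was replaced by that of the identifier. Exon lengths are the union of annotated exons.

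Genes with at least 10 normalized counts in at least 3 libraries were tested with limma 3.58.1 in R 4.3.3 on log2(value + 1), with an abundance trend, two-sided, 1 group term and Benjamini-Hochberg adjustment. The pseudocount draws low genes together. Recovered reads were tested with edgeR 4.0.16 (quasi-likelihood, TMM), which called 571 genes higher and 379 lower, and with DESeq2 1.42.0. The length and GC trend was removed with mgcv 1.9.3. Scripts were tested on simulated data. Other alternatives were array weights, no abundance trend, pseudocounts of 0.5 and 5, no filter, a mean of at least 100, quantile and TMM scaling, totals without the 50 most abundant genes, a replicate block, and leaving out each library. Adding overlapping genes and summing copies were chosen after seeing the data.

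Members, gene lists and markers were chosen with earlier results of these data known. Values in every library are given for called members, for the member with the smallest p of each role, and for Eif1, Eif2s1, Eif2b5, Eif3a, Eif4e, Eif4a1, Eif4g1, Eif5a, Eif5b and Eif6. Of the other lists, called genes and Eif2ak2, Eif4ebp1, Pabpc1, Eef1a1 and Eef2 are given. Others with values in every library were named with their values known.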

Additional observations from a re-analysis of the deposited data

How the results depend on the processing

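The reported counts were 1 initiation factor higher and 3 lower, with a median log2 change of 0.05, 573 genes higher and 406 lower, and 1 control or partner gene in each direction. No named factor that was called changed sign in any of the 22 other settings. With edgeR, TMM factors, pseudocounts of 0.5 and 5, overlapping genes added or copies summed, the same 4 factors were called.

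Without the abundance trend limma called 0 factors higher, 0 lower and 0 control or partner genes in either direction, 1 gene higher and 3 lower, although 11 factors and 10 control or partner genes had an unadjusted p under 0.05. The adjusted p was then 0.159 for Eif3a, 0.139 for Eif4g1, 0.137 for Eif4g3 and 0.101 for Eif6. With array weights 3 factors were higher, 722 genes lower, and 2 control or partner genes higher and 4 lower. Without a filter 333 genes were higher and 214 lower, and 0 control or partner genes were lower, with Eif3a at an adjusted p of 0.0701. With a mean of at least 100, 4 factors were higher (Eif2b2, Eif3d, Eif3k and Eif6). DESeq2 called 4 factors higher, 994 genes higher and 919 lower, and 2 control or partner genes higher and 6 lower. Quantile scaling gave a median of 0.00473 and totals without the 50 most abundant genes 0.0127, each with 2 control or partner genes lower. The latter scaling split the called genes into 462 higher and 586 lower. Removing the length and GC trend gave 2 factors higher, a median of 0.0181, and 2 control or partner genes higher and 2 lower.

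Libraries with the same replicate number did not deviate together (r of -0.00264, -0.00681 and -0.0434), so the number is not taken as a pairing. No library correlated best with the library of its own number in the other group. With the replicate block 365 genes were higher and 250 lower, 0 control or partner genes were lower (1 higher, 18 of 47 at an unadjusted p under 0.05), and Eif4g3 had an adjusted p of 0.0609. The block with the trend removed gave 0 factors higher and 1 lower (Eif4g1, with 15 factors at an unadjusted p under 0.05), a median of 0.0181, 192 genes lower and 2 control or partner genes lower.

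Leaving out 1 library at a time gave 0 to 5 factors higher, 0 to 3 lower, a median of 0.0276 to 0.0730, 100 to 780 genes higher, 30 to 723 lower, and 0 to 2 control or partner genes higher and 0 to 6 lower. The highest counts of genes came without R837 replicate 3 and the lowest without R837 replicate 2. In the fits without R837 replicate 1, R837 replicate 2 or taurine replicate 3, limma called no factor, and 9 to 13 had an unadjusted p under 0.05. The cause of these differences was not tested. With 3 libraries a group, calls near the threshold depend on which libraries are used.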

Other observations

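Among the 5442 genes with a mean over 1000 normalized counts, a search made after the values of Eif4h were seen found 3 that were more than 1.5 times higher in R837 replicate 2 and taurine replicate 3 than in every other library: Eif4h, Hnrnpf and Rell1. Hnrnpf, a splicing regulator, had 7496, 12706 and 6533 normalized counts with R837 and 6282, 6345 and 12011 with taurine. Rell1 had 3279, 8833 and 2596 with R837 and 2579, 3125 and 7902 with taurine. None of the 3 differed between the groups, with adjusted p of 0.990, 0.840 and 0.949 (limma).

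Eif4e was 1 of 21 such genes that were lower in taurine replicate 3 than in every other library by more than 1.5 times. Among them were Rps6kb1, the S6 kinase downstream of mTOR, with 2352, 2429 and 2138 normalized counts with R837 and 1828, 1908 and 1004 with taurine, and Arf1, with 18180, 17924 and 16519 and 18269, 18309 and 8793. Trim25, an interferon-induced ubiquitin ligase, had 18583, 18264 and 18028 with R837 and 18155, 19092 and 8636 with taurine. In 5.40% of cases, over genes with a mean over 1000 in either group, the highest library was at least 1.5 times the lowest.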
